A study of Mus musculus with 6 samples.

Results

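The dystrophin-glycoprotein complex of leg muscle is described here by 8 genes, *Dmd*, *Utrn*, *Dag1*, *Sgca*, *Sgcb*, *Sgcd*, *Sspn* and *Dtna*. They were chosen by name, as subunits of the complex, by a rule that uses no measured value, although earlier results of these data were known. All 8 were matched by gene identifier among the 56262 genes listed, and all 8 were among the 22071 genes that passed the filter on low counts and were tested.

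This complex spans the membrane of the muscle fiber. Dystrophin, or its relative utrophin, binds actin inside the cell and the transmembrane core dystroglycan at the membrane, and dystroglycan in turn binds laminin in the basement membrane through the sugar chains it carries. The sarcoglycans and sarcospan form a further membrane unit beside dystroglycan, while dystrobrevins and syntrophins sit on the cytoplasmic side and recruit signaling proteins such as neuronal nitric oxide synthase. The complex passes force from the contractile apparatus to the matrix and protects the membrane during contraction, and loss of its subunits causes several muscular dystrophies.

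RNA-seq was performed on leg muscle of mouse fetuses at E18.5, with 3 WT samples and 3 samples of *SYISL* knockout (KO) fetuses. *SYISL* is a long noncoding RNA transcribed in the sense direction over an intron of *Synpo2*. Mice were mated within a genotype, so a KO fetus had KO parents, and effects of the fetal and of the maternal genotype cannot be told apart. Strain, sex, litter and any pooling of fetuses are not given in the sources used here, so p-values measure only the spread between these samples, which may be technical.

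Each library held 82054811 to 102233181 counts. The annotation used for gene names has no symbol for *SYISL*, so its loss was not checked in these counts. The host gene *Synpo2* had 137, 131 and 139 CPM in WT samples and 193, 220 and 229 CPM in KO samples, and it rose 1.58-fold (edgeR adjusted p = 2.89e-05), which says nothing about the deletion itself. Fiber genes were abundant in all samples, and the fiber actin gene *Acta1* averaged 4513 CPM over WT samples against 12495 CPM over KO samples. Levels between samples are given as CPM, that is, counts scaled to a common library size with TMM factors, and levels between genes as FPKM, which divides CPM by the exon length of the gene in kilobases. A gene was called at an adjusted p-value under 0.05 in edgeR's quasi-likelihood test and a fold change over 1.5, and "rose" and "fell" are used only of called genes.

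Of the 8 members, 4 rose in KO muscle (*Dmd*, *Sgca*, *Sspn* and *Dtna*) and none fell. Over all genes tested, 8.31% were called higher and 8.39% lower. The other 4 members (*Utrn*, *Dag1*, *Sgcb* and *Sgcd*) were higher in KO muscle by 1.23- to 1.33-fold, under the 1.5-fold threshold. All 8 members had an adjusted p-value under 0.05 and a higher mean in KO, a state shared by 21.9% of all genes tested, whereas 23.1% passed this test in the other direction. In all 8 members the lowest KO sample lay above the highest WT sample, as was the case for 27.3% of all genes tested. The median log2 fold change was 0.55 over the 8 members and -0.0041 over all genes tested. For the count of 0 members called lower, 0 members had a lower mean in KO at an unadjusted p under 0.05, and DESeq2 and limma-voom also called 0 lower.

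**Figure D1:**
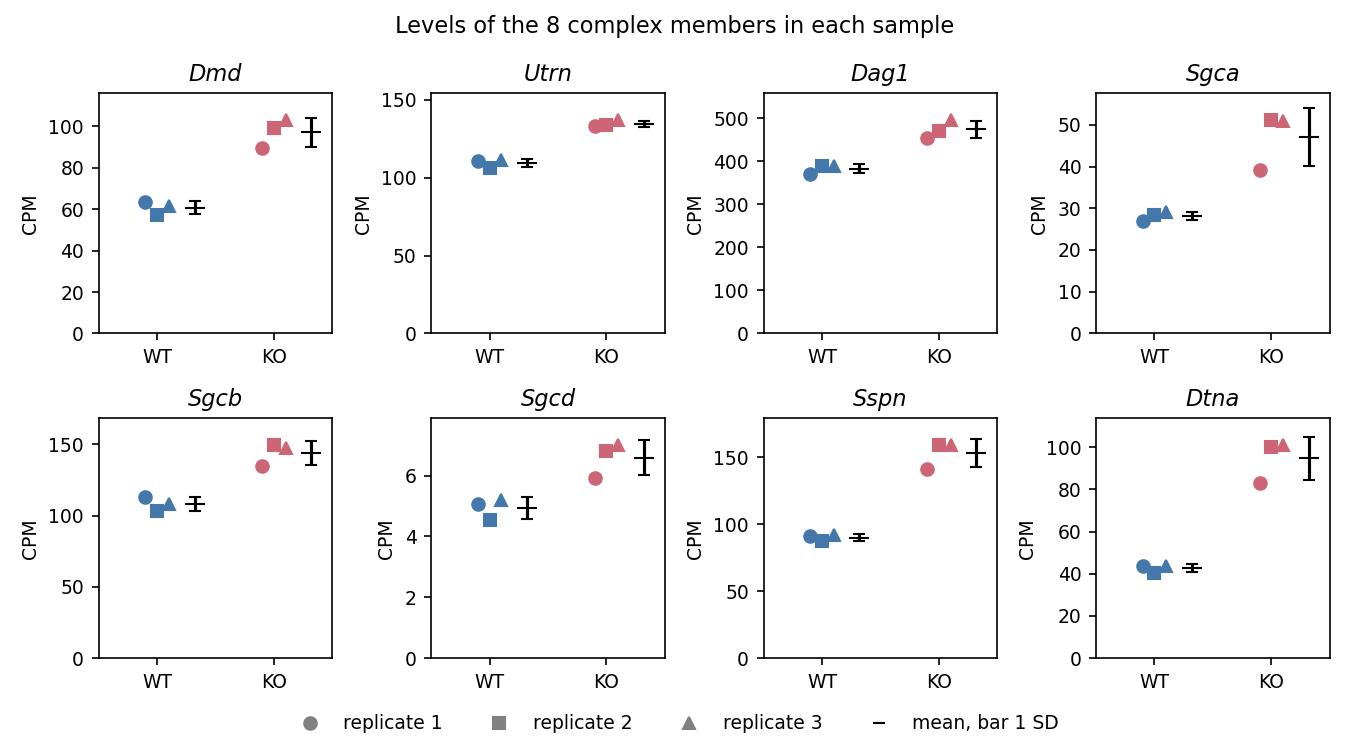
Level of each member in CPM (vertical axes start at 0) in the 3 WT samples (blue) and the 3 KO samples (red), with marker shapes for replicate numbers and bars for the mean and 1 SD. In each panel the 3 KO samples lie above the 3 WT samples, and KO replicate 1 is the lowest of the KO samples.

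*Dmd*, which encodes dystrophin, lies at chrX:82948870-85206141 on the plus strand (GRCm38), with 14 annotated transcripts. It had 63.7, 57.4 and 61.3 CPM in WT samples and 89.5, 99.2 and 103 CPM in KO samples. The groups did not overlap, and the lowest KO sample, replicate 1, stood well apart from the highest WT sample. *Dmd* rose 1.60-fold, from 60.8 ± 3.16 to 97.2 ± 6.98 CPM (SD, n = 3; log2 fold change 0.68 ± 0.06 SE, edgeR adjusted p = 1.53e-05). It was the called member closest to the 1.5-fold threshold. The counts add up all transcripts of the gene, from the full-length dystrophins of muscle and brain to the short forms that start inside the gene and occur in many cell types, so a change of a single form cannot be read from them.

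*Dmd* has a window in the RefSeq start sites for its first start and for an internal one, far downstream, and the 250 bases before each are shown because the counts cannot separate the transcripts that begin at these places. Capitals mark E-boxes (CANNTG, the recognition sequence of myogenic bHLH factors such as MyoD) and a CArG box (the recognition sequence of serum response factor). Both windows are written 5′ to 3′ on the plus strand, from chrX:82948620-82948869 and chrX:85048045-85048294 (GRCm38.p6).
*Dmd* first start: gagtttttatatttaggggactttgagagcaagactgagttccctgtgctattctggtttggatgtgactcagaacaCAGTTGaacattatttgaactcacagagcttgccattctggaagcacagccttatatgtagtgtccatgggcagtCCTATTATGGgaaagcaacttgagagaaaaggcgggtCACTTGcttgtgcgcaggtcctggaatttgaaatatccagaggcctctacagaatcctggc
*Dmd* internal start: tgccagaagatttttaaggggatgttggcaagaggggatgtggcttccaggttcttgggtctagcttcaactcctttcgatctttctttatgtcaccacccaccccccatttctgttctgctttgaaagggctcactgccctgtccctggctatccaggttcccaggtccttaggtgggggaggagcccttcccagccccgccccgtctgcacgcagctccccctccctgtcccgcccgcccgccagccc

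The window of the first start held 2 E-boxes, 1 CArG box that begins 98 bases before the start, and 1 TATAAA on either strand, with a GC content of 45.2%. In the window of the internal start there was no E-box, CArG box or TATAAA but 3 GC boxes (GGGCGG, either strand), and the GC content was 60.0%. An E-box occurred in 66.2% of 32851 windows of the same length before RefSeq starts, a CArG box in 1.47%, a GC box in 32.7% and TATAAA in 12.4%. The first start thus carries a motif that is rare among windows, whereas E-boxes are common. These matches describe the sequence only.

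*Utrn* (chr10:12382188-12869365, minus strand) encodes utrophin, which takes the place of dystrophin in many tissues, in fetal muscle and at the adult neuromuscular junction. Its levels were 111, 106 and 112 CPM in WT and 133, 134 and 137 CPM in KO samples. KO samples were tightly grouped and all lay above WT samples. The mean was 1.23-fold higher in KO (log2 fold change 0.30 ± 0.04 SE, edgeR adjusted p = 0.000166), which is under the threshold for a call.

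*Dag1* (chr9:108204634-108263958, minus strand) encodes both dystroglycan chains as a common precursor. It had 371, 388 and 389 CPM in WT and 455, 471 and 495 CPM in KO samples, and the groups did not overlap. The mean was 1.24-fold higher in KO (log2 fold change 0.31 ± 0.05 SE, edgeR adjusted p = 0.000859) and the gene was not called. As the receptor at the core of the complex, *Dag1* was thus among the 2 members with the smallest differences, both under 1.25-fold.

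The sarcoglycan genes differed in size of change. *Sgca* (chr11:94962791-94976327, minus strand), the alpha-sarcoglycan restricted to striated muscle, had 27.0, 28.4 and 29.1 CPM in WT and 39.1, 51.1 and 51.0 CPM in KO samples. KO replicate 1 lay apart from the other KO samples and still above every WT sample. *Sgca* rose 1.67-fold, from 28.1 ± 1.05 to 47.1 ± 6.91 CPM (SD, n = 3; log2 fold change 0.74 ± 0.09 SE, edgeR adjusted p = 0.000178). *Sgcb* (chr5:73632749-73647790, minus strand), which encodes the beta-sarcoglycan needed for assembly of the unit, had 113, 103 and 108 CPM in WT and 135, 149.6 and 148 CPM in KO samples. It was 1.33-fold higher in KO without a call (log2 fold change 0.41 ± 0.05 SE, edgeR adjusted p = 0.000191). *Sgcd* (chr11:46896253-47988969, minus strand), which encodes delta-sarcoglycan, was the least counted member, with 375 to 548 counts in WT and 556 to 682 counts in KO samples. Its levels were 5.08, 4.54 and 5.19 CPM in WT and 5.93, 6.81 and 7.01 CPM in KO samples. The groups did not overlap, and its 1.33-fold difference was not called (log2 fold change 0.41 ± 0.09 SE, edgeR adjusted p = 0.00417). Of the members not called, *Sgcb* and *Sgcd* were the closest to the 1.5-fold threshold.

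*Sspn* (chr6:145931641-145965223, plus strand) encodes sarcospan, a small protein with several membrane spans that binds the sarcoglycans. It had 91.1, 87.4 and 91.7 CPM in WT and 141, 159 and 159 CPM in KO samples. WT samples were close together and KO replicate 1 was again the lowest of its group. *Sspn* rose 1.70-fold, from 90.1 ± 2.31 to 153 ± 10.3 CPM (SD, n = 3; log2 fold change 0.76 ± 0.05 SE, edgeR adjusted p = 3.12e-06).

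*Sgca* and *Sspn*, the called genes of the sarcoglycan-sarcospan unit, are shown with the 250 bases before a RefSeq start, at chr11:94976328-94976577 (minus strand) and chr6:145933872-145934121 (plus strand; GRCm38.p6). *Sspn* has another start upstream of this one, whose window is not printed and held no E-box. Capitals mark E-boxes.
*Sgca* start: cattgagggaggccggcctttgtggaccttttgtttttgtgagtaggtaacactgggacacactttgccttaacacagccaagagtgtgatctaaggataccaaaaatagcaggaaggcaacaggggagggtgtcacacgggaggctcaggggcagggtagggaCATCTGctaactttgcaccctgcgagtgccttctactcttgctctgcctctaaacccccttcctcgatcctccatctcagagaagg
*Sspn* start: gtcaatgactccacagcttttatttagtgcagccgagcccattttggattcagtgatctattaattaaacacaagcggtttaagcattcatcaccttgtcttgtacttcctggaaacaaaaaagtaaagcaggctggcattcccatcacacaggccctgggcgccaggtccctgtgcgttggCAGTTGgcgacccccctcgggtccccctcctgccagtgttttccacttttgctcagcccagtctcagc

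Each of these windows held 1 E-box, and that of *Sspn* also held 1 M-CAT element (CATTCC, either strand), which occurred in 12.6% of windows. Neither held a CArG box or TATAAA. Over the 10 windows found for 7 members, the number of E-boxes ran from 0 to 7, with the highest number in the *Utrn* window, and the MEF2 site, present in 0.508% of all windows, occurred in 0. A CArG box occurred in 1 of the 10 windows, the first start of *Dmd*. *Dtna* had no window in the table.

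*Dtna* (chr18:23415135-23659715, plus strand) encodes alpha-dystrobrevin, which binds dystrophin directly and carries syntrophins. Of the members it changed most. Its levels were 43.8, 40.5 and 43.7 CPM in WT and 83.0, 100.3 and 101 CPM in KO samples, with a wide gap between the highest WT and the lowest KO sample. *Dtna* rose 2.22-fold, from 42.6 ± 1.90 to 94.8 ± 10.2 CPM (SD, n = 3; log2 fold change 1.15 ± 0.07 SE, edgeR adjusted p = 2.15e-06). It was the 1 member of the 8 that also passed a threshold of 2-fold. The share of all genes tested that passed 2-fold was not computed.

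KO replicate 1 was the lowest KO sample for 8 of 8 members, and WT replicate 2 was the lowest WT sample for 6 of 8. The shares of all genes tested with these orders were not computed. Summed over the members, CPM was 826, 816 and 839.6 in WT samples and 1081, 1171 and 1201 in KO samples. The KO samples of *Utrn* had an SD of 2.06 CPM around 135 CPM. The KO SD was larger for the called members, and also for *Dag1* (20.4 CPM) and *Sgcb* (8.14 CPM), which were not called. It was smaller for *Sgcd*, the least counted member (0.574 CPM). The number of members called was 4 with each library left out in turn, KO replicate 1 included.

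The remaining subunits moved in both directions. Of 8 further genes of the complex, 6 were tested, 2 rose, 1 fell and 3 were not called, with a median log2 fold change of 0.18. *Sgcz* and *Sntg1* had 3 to 11 counts per library and were not tested. *Sgce*, the epsilon-sarcoglycan that replaces alpha-sarcoglycan outside striated muscle, had 55.1 to 57.4 CPM in WT and 63.1 to 65.2 CPM in KO samples, a 1.14-fold difference that was not called (edgeR adjusted p = 0.00259).

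The syntrophins are adaptor proteins, each with a PDZ domain that binds channels and enzymes. *Sntb1* rose 1.54-fold (log2 fold change 0.63 ± 0.05 SE, edgeR adjusted p = 7.08e-06), just past the threshold. *Sntb2*, the syntrophin enriched at the neuromuscular junction, was 1.10-fold higher without a call (edgeR adjusted p = 0.0159), and *Sntg2* overlapped between groups (edgeR adjusted p = 0.620). *Nos1*, which encodes the neuronal nitric oxide synthase held at the membrane by the complex, had 24.7, 23.9 and 27.3 CPM in WT and 41.2, 39.1 and 44.0 CPM in KO samples. It rose 1.64-fold (log2 fold change 0.71 ± 0.06 SE, edgeR adjusted p = 1.68e-05).

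*Dtnb*, which encodes beta-dystrobrevin, a form found mostly outside muscle, went the other way. It had 16.3, 18.8 and 17.0 CPM in WT and 12.0, 10.8 and 10.6 CPM in KO samples. *Dtnb* fell to 0.639 of its WT level (log2 fold change -0.64 ± 0.08 SE, edgeR adjusted p = 0.000107), the 1 subunit called lower. *Drp2*, a dystrophin-related gene of Schwann cells, overlapped between groups, with 16.1 to 17.1 CPM in WT and 16.9 to 17.8 CPM in KO samples (edgeR adjusted p = 0.544).

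**Figure D2:**
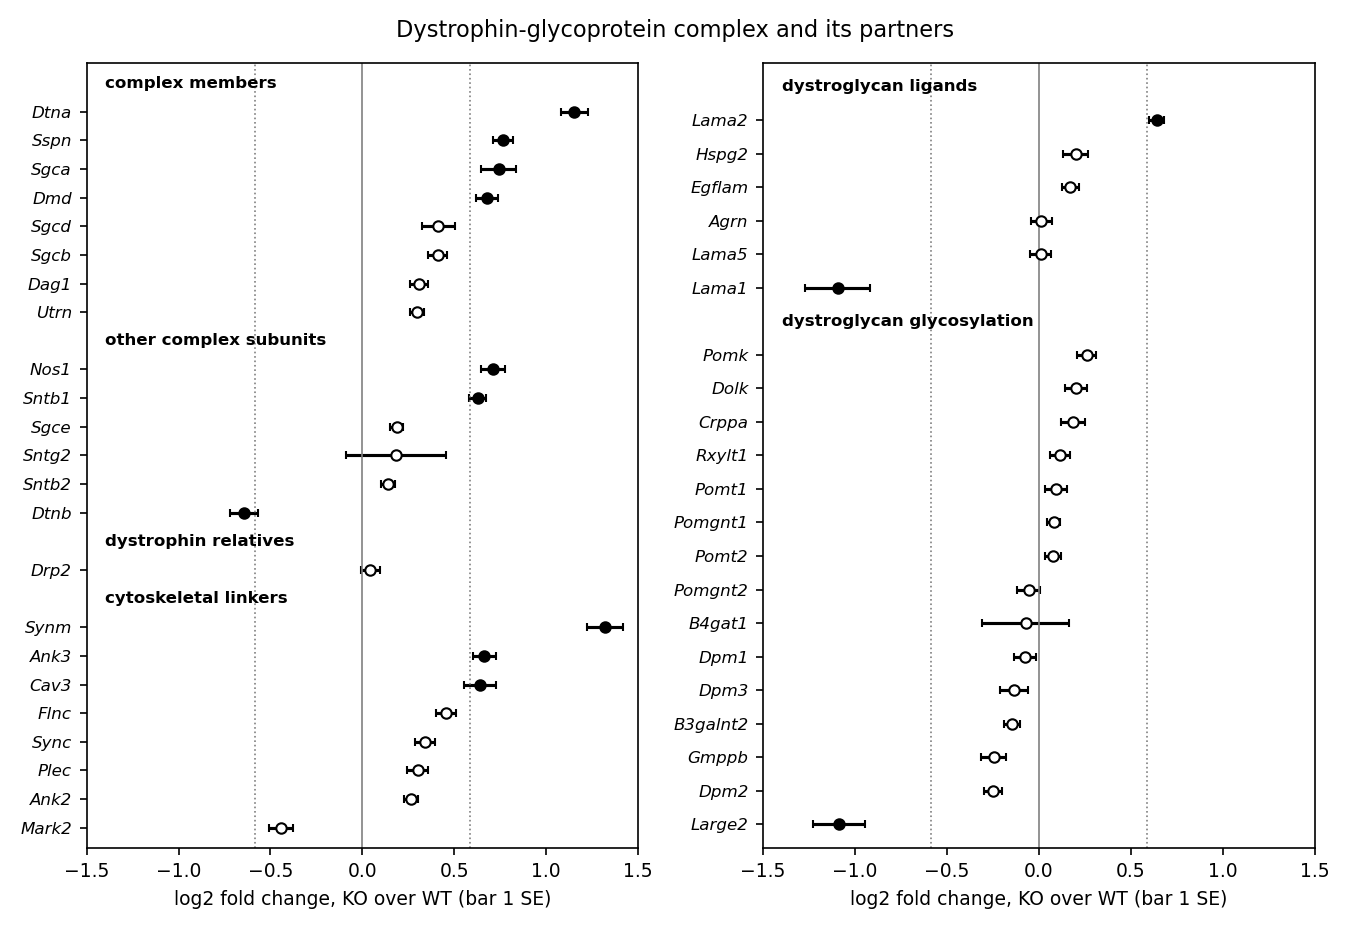
Log2 fold change of KO over WT (horizontal axis, bars 1 SE) for the tested genes of the complex, its relatives and linkers (left) and of dystroglycan ligands and glycosylation enzymes (right). Filled points are called genes and dotted lines mark 1.5-fold in each direction. All 8 members lie to the right of 0, whereas the glycosylation enzymes lie on both sides of it.

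Each of 3 members was compared with a relative as a ratio of counts within each sample, which does not depend on library scaling. In all 3 pairs the ratio was higher in every KO sample than in every WT sample. The ratios are built from the gene counts described above, so this order is not separate evidence. The share of gene pairs with such an order was not computed. With 3 samples against 3, an exact two-sided permutation test cannot go below p = 0.1, and each of the 3 pairs gave p = 0.1 (adjusted over 3 pairs, 0.1), so none can pass 0.05.

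The log2 ratio of *Dmd* to *Utrn* was -0.80, -0.89 and -0.86 in WT and -0.57, -0.43 and -0.41 in KO samples, an increase of 0.38 (1.30-fold). There were fewer counts for dystrophin than for utrophin in every sample. For *Sgca* over *Sgce* the log2 ratio was -1.09, -0.96 and -0.98 in WT and -0.74, -0.35 and -0.31 in KO samples, an increase of 0.54 (1.46-fold).

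*Dtna* over *Dtnb* moved most. Its log2 ratio was 1.43, 1.10 and 1.36 in WT and 2.79, 3.22 and 3.26 in KO samples, an increase of 1.79 (3.46-fold), and the 2 dystrobrevin genes were called in opposite directions. KO replicate 1 had the lowest ratio of the KO samples in each of the 3 pairs.

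**Figure D3:**
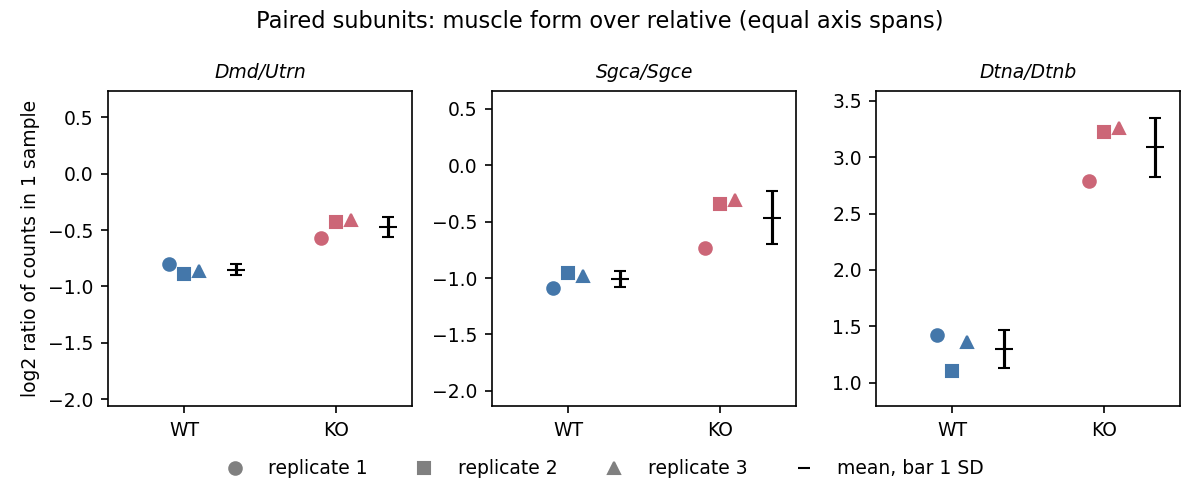
Log2 ratio of the counts of 2 subunits within each sample (vertical axes, of equal span) for 3 pairs, in WT (blue) and KO (red), with marker shapes for replicates and bars for the mean and 1 SD. KO samples lie above WT samples in each panel, with the widest gap for *Dtna* over *Dtnb*.

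Per exon length, *Dag1* had the highest level of the members in WT, at 60.2 ± 1.61 FPKM (SD, n = 3). *Sgcb* followed at 26.7 ± 1.20, *Sspn* at 18.0 ± 0.463, *Sgca* at 16.2 ± 0.608 and *Utrn* at 6.41 ± 0.158 FPKM. *Dmd* at 2.55 ± 0.133 FPKM and *Dtna* at 2.52 ± 0.112 FPKM did not differ beyond their spread, and *Sgcd* was lowest at 0.598 ± 0.042 FPKM.

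In KO samples *Dtna* stood above *Dmd*, at 5.60 ± 0.605 against 4.08 ± 0.293 FPKM (SD, n = 3). *Sgca* at 27.1 ± 3.98 FPKM and *Sspn* at 30.6 ± 2.06 FPKM overlapped in their ranges over samples. The order of *Dag1* (74.5 ± 3.21), *Sgcb* (35.5 ± 2.01), *Utrn* (7.87 ± 0.121) and *Sgcd* (0.797 ± 0.069 FPKM) was as in WT.

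These levels depend on the length used. *Dtna* has 16930 bases of exons over 10 transcripts but a longest transcript of 6295 bases, and *Dmd* has 23801 against 14910. With the longest transcript as length, *Dtna* lay above *Dmd* already in WT (6.77 against 4.08 FPKM), and in KO at 15.1 FPKM also above *Utrn* at 10.9 FPKM.

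**Figure D4:**
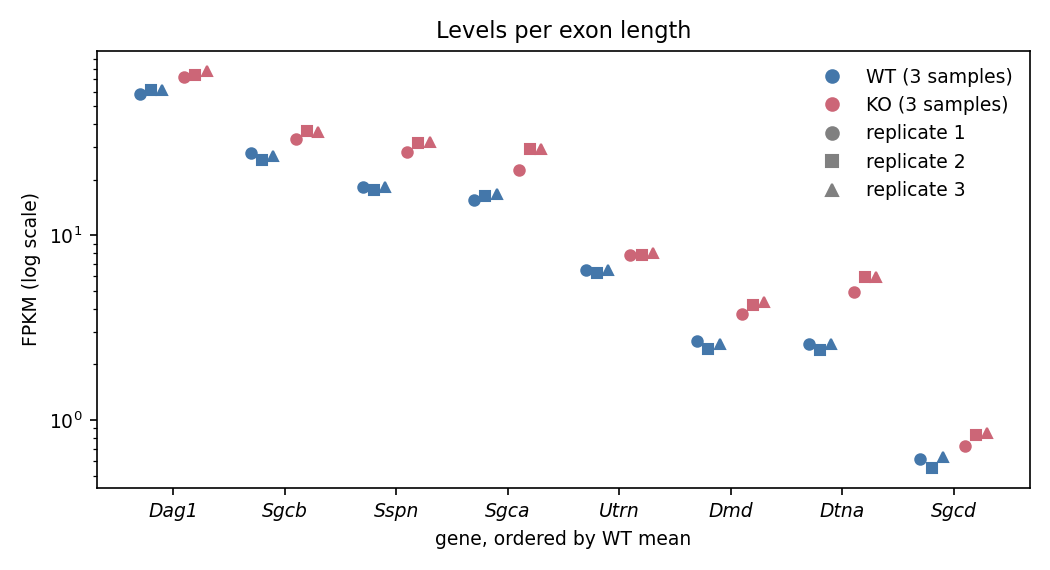
FPKM on a log scale for the 8 members, ordered by WT mean, in WT (blue) and KO (red) samples, with 1 marker per sample. *Dag1* is highest and *Sgcd* lowest in both genotypes, and *Dmd* and *Dtna* share 1 level in WT but not in KO.

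Few partners of the complex outside the cell were called. Of 6 genes for ligands of dystroglycan, 1 rose, 1 fell and 4 were not called, with a median log2 fold change of 0.09. Over all genes tested, 8.31% were called higher and 8.39% lower, so counts this small say little about the ligands as a set. At an adjusted p under 0.05 and any fold change, 3 ligand genes were higher in KO and 1, *Lama1*, was lower (edgeR). *Lama2*, the laminin chain of the adult muscle basement membrane, had 91.4, 91.2 and 93.3 CPM in WT and 137, 145 and 148 CPM in KO samples and rose 1.56-fold (log2 fold change 0.64 ± 0.04 SE, edgeR adjusted p = 1.99e-06). *Lama1*, the chain of embryonic and epithelial basement membranes, was far less abundant, at 1.91, 2.14 and 2.06 CPM in WT and 1.22, 0.944 and 0.699 CPM in KO samples. It fell to 0.468 of the WT level (edgeR adjusted p = 0.000855). *Agrn*, whose product clusters acetylcholine receptors, overlapped between groups, with means of 169 and 171 CPM (edgeR adjusted p = 0.867), as did *Lama5* (0.903). *Hspg2* (perlecan) and *Egflam* (pikachurin) were higher by 1.15- and 1.13-fold without a call. WT replicate 2 had the highest WT level for 5 of the 6 ligand genes.

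The sugar chains through which dystroglycan binds laminin are built by a series of enzymes, many of them mutated in dystroglycanopathies. Of 15 genes of this pathway, 0 rose, 1 fell and 14 were not called, with a median log2 fold change of -0.06. For the count of 0, 3 genes had a higher mean in KO at an adjusted p under 0.05 without reaching 1.5-fold (edgeR). At that level and any fold change, 4 genes had a lower mean (*Large2*, *B3galnt2*, *Gmppb* and *Dpm2*). The largest difference of the 3 higher genes was in *Pomk*, a kinase acting on the core sugar (18.0 ± 0.700 to 21.6 ± 0.380 CPM, 1.20-fold, edgeR adjusted p = 0.00285). *Large2*, a glycosyltransferase gene of epithelia, had 12.0, 16.3 and 13.5 CPM in WT and 7.95, 5.83 and 5.90 CPM in KO samples and fell to 0.471 of the WT level (edgeR adjusted p = 0.000212), with the highest level in WT replicate 2. The *Large2* and *Gmppb* exons share 127 and 937 bases with *Pex16* and *Rnf123* on the opposite strand. Other genes of this pathway overlap neighbors too. *B4gat1*, not called, shares 1967 of its 2306 exon bases with a gene on the same strand and had only 24 to 35 counts per library.

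Of 8 genes for proteins that tie the complex to filaments, microtubules or caveolae, 3 rose, 0 fell and 5 were not called, with a median log2 fold change of 0.40. *Synm*, an intermediate filament protein that binds dystrobrevin and dystrophin, had 9.34, 7.77 and 9.23 CPM in WT and 19.2, 23.3 and 23.2 CPM in KO samples and rose 2.50-fold (log2 fold change 1.32 ± 0.10 SE, edgeR adjusted p = 5.08e-06). *Ank3*, an ankyrin that holds dystrophin and dystroglycan at costameres, rose 1.58-fold (edgeR adjusted p = 2.27e-05). *Cav3*, the muscle caveolin that binds dystroglycan, had 65.2, 64.1 and 64.2 CPM in WT and 85.6, 114 and 102 CPM in KO samples and rose 1.56-fold (edgeR adjusted p = 0.000257), but without KO replicate 2 its log2 fold change was 0.54 and it was not called. *Flnc* (filamin C), *Sync*, *Plec* and *Ank2* were higher by 1.20- to 1.37-fold without a call. The *Sync* exons share 782 bases with *Rbbp4* on the opposite strand. *Mark2* was the 1 gene with a lower mean at an adjusted p under 0.05 (edgeR), at 0.737 of the WT level and likewise not called.

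The genotypes also differed in markers of other cell types. Of 10 fiber markers, 9 rose, with a median log2 fold change of 0.99, and their summed level was 19073 to 21316 CPM in WT and 40128 to 48310.5 CPM in KO samples. *Myh3*, the embryonic myosin, was the exception (log2 fold change -0.04, edgeR adjusted p = 0.651). KO replicate 1 had the lowest KO level for 9 of these 10 markers, as it had for the 8 members. In the other marker lists this ran from 1 of 6 fibroblast and 1 of 5 macrophage markers to 5 of 7 endothelium markers. The share over all genes tested was not computed. The summed level of the members was 1.39 times as high in KO as in WT, and that of the fiber markers 2.23 times. The 6 markers of myogenic progenitors included 0 called genes (edgeR), with summed levels of 350.4 to 367 CPM in WT and 345 to 368 CPM in KO samples. At an adjusted p under 0.05 and any fold change, 2 of them were higher in KO and 2 lower (edgeR). At an unadjusted p under 0.05, 3 were lower.

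Of 10 epidermis markers, 10 fell, with a median log2 fold change of -4.53 and summed levels of 16272 to 24431 CPM in WT and 687 to 798 CPM in KO samples, of which *Krt1*, *Krt10* and *Lor* had the highest WT levels. WT replicate 2 had the highest level of all 10. Of 6 red blood cell markers, 6 fell (3529 to 4341 against 500.1 to 576 CPM), and of 6 adipocyte markers, 6 rose (105 to 137 against 339.6 to 402 CPM). Among macrophage markers 3 of 5 rose (187 to 201 against 304 to 330.4 CPM), and among smooth muscle markers 2 of 7 (666 to 689 against 818 to 838 CPM). Endothelium markers included 0 called of 7 (edgeR, with 0 lower at an unadjusted p under 0.05), at 692 to 722 against 802 to 838 CPM. Fibroblast markers included 0 called of 6, at 28479.8 to 31462 against 34667 to 35803 CPM. At an adjusted p under 0.05 and any fold change, 6 of the 7 endothelium markers and 5 of the 6 fibroblast markers were higher in KO (edgeR). For all 7 and all 6, every KO sample lay above every WT sample. Schwann cell markers had 1 gene called higher and 1 lower of 8 (191 to 207 against 189.8 to 211 CPM). With no fold-change threshold, 7 of these 8 were higher in KO at an adjusted p under 0.05 and 1, *Erbb3*, was lower (edgeR). Those 7 did not overlap between groups, and the median log2 fold change of the 8 was 0.41. The fall of *Erbb3*, from a mean of 102 to 62.7 CPM, offset the other 7 in the summed level. Cartilage markers had 1 gene called higher and 3 lower of 6 (367 to 469 against 318 to 323 CPM). None of these markers was at 0 counts in any group. In bulk tissue, fewer cells of a type and less RNA per cell cannot be told apart, and the part of these shifts in the results for the complex was not tested.

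**Figure D5:**
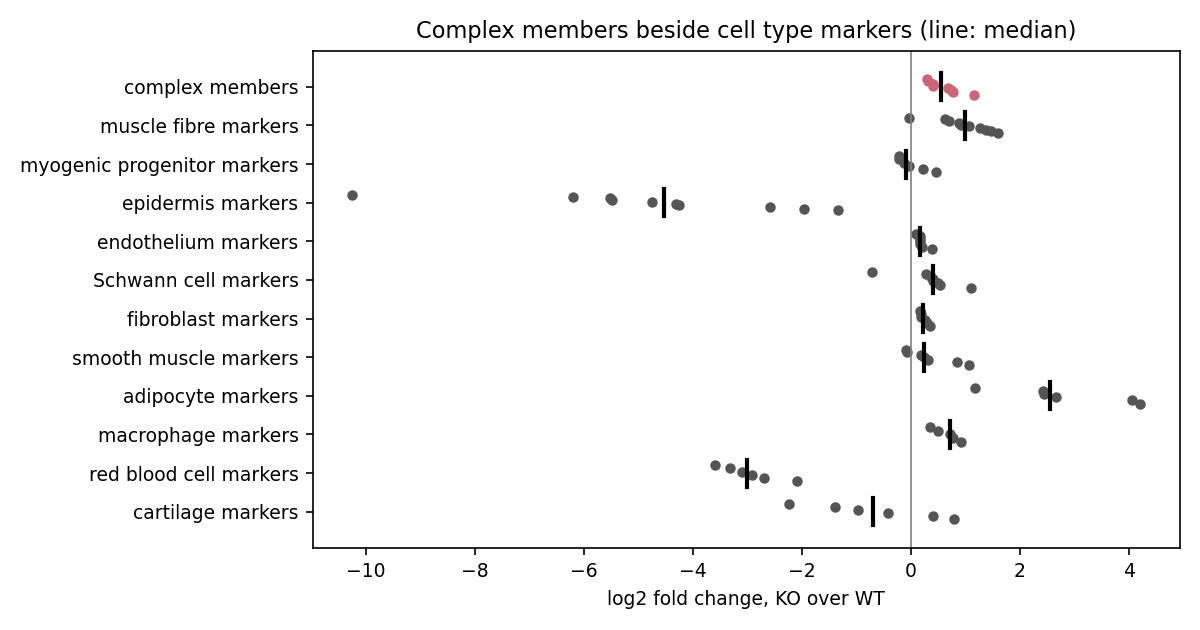
Log2 fold change of KO over WT (horizontal axis) of each complex member (red) and each marker gene (grey), with a black line at the median of a list. The median of the members lies between that of the myogenic progenitor markers near 0 and that of the fiber markers. The medians of endothelium, fibroblast, smooth muscle, Schwann cell and macrophage markers lie in that range too, whereas epidermis and red blood cell markers lie far to the left.

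The genes whose log2 CPM followed *Dmd* most closely over the 6 samples, among 12371 genes with a mean of at least 5 CPM, were *Ankrd28*, *Gabre* and *Cd36*, with a Pearson r of 0.9996, 0.9995 and 0.9995. For *Utrn* they were *Usp28*, *Myo18b* and *Col12a1*, with 0.9989, 0.9988 and 0.9987. These values describe 6 samples that fall into 2 groups and share library effects, and a gene that differs between genotypes reaches a high r by that alone. *Ankrd28* had means of 54.5 and 65.5 CPM and *Cd36*, a fatty acid transporter, of 116 and 209.6 CPM in WT and KO, so the likeness lies in the order and spacing of the samples and not in the size of the change.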

How the data were processed

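RNA-seq of leg muscle from 3 WT and 3 *SYISL* KO fetuses was analysed. The authors' reads of 150 bases from both ends were, per the submitters' processing notes and methods, trimmed with Trim Galore 0.6.6, mapped to mm10 with HISAT2 2.2.1 and counted per gene with featureCounts 2.0.1. The authors deposited raw gene counts without normalization, and the per-sample files and the series table differed in 0 values. The annotation and strand setting of the counting are not given in the sources used here, so reads of overlapping genes and close paralogs may be assigned otherwise.

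Of 56262 gene IDs, 55227 were matched, without version numbers, to GENCODE release M21, and 18920 genes had no count. Counts were fitted in R 4.3.3 with edgeR 4.0.16 (filterByExpr, TMM factors, quasi-likelihood F-test on genotype), with Benjamini-Hochberg adjustment over 22071 genes. The SE of a log2 fold change was its size divided by the square root of F. FPKM used the union of exons as length. Ratios within a sample used a pseudocount of 0.5 counts. Promoter windows and starts are from RefSeq (GRCm38.p6). The depth of 82054811 to 102233181 counts per sample limits precision little for the members, the least counted of which had at least 375 counts, and counting error is only part of the error.

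No source ties equal replicate numbers to a shared litter or batch, so samples were not treated as paired. Samples of a genotype differed by more than sampling noise (mean chi-square per gene 5.17 to 35.5, where 1 is sampling noise alone). The study's own test, DESeq2 (1.42.0 here), limma-voom (limma 3.58.1), other scaling factors, filters, thresholds, a replicate block and leaving out each sample were alternatives. The edgeR, DESeq2 and limma-voom fits were also tested on simulated data. Of 200 genes changed 2-fold in the simulation, edgeR called 154, DESeq2 147 and limma-voom 151. They also called 10, 6 and 9 unchanged genes, so a gene that was not called may still differ. The members and lists were chosen with earlier results of these data known. Some genes of the lists, and 2 further pairs, are not reported here, and the counts and medians of lists leave them out. Named were all members, the 3 pairs, the called genes with the largest fold changes of each list (up to 3 in each direction), genes whose role makes a count readable, and the 3 genes most correlated with *Dmd* and with *Utrn*.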

Additional observations from a re-analysis of the deposited data

How the results depend on the processing

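The count of 4 members called higher and 0 lower held with RLE and upper-quartile factors, library size only, DESeq2, limma-voom, both other filters, the replicate block (4 higher) and each library left out in turn (4 to 4). With a fold change over 2, 1 member was called higher (*Dtna*), and with no fold-change threshold 8 were. The share of all genes called at a fold change over 2 was not computed, for the members or the lists below. No pair ratio or log2 fold change of a member changed sign. Log2 fold changes that did were those of uncalled genes near 0. With library size only *Drp2* was at -0.024, *Agrn* at -0.053 and *Lama5* at -0.057, and with upper-quartile factors *Myh3* was at 0.027. With each library left out, *Sntg2* ran from -0.071 to 0.53, *Agrn* from -0.036 to 0.062 and *Lama5* from -0.049 to 0.059. Upper-quartile factors shifted the median of all genes to 0.06 and library size only to -0.07. All genes called higher and lower numbered 1835 and 1852 with TMM factors, 2188 and 1673 with upper-quartile factors, and 1528 and 2088 with library size only.

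With a fold change over 2, other subunits had 0 genes called higher and 0 lower, ligands 0 higher and 1 lower, and linkers 1 higher. With no fold-change threshold, other subunits had 4 higher, ligands 3 higher, glycosylation genes 3 higher and 4 lower, and linkers 7 higher and 1 lower. Upper-quartile factors left 0 other subunits called lower (*Dtnb*, log2 fold change -0.58). Library size only left 0 ligands called higher (*Lama2*, 0.57), and 1 other subunit, since *Sntb1* (0.56) lost its call, as did *Cav3* (0.57). Without KO replicate 2, *Cav3* (0.54) did. The replicate block changed no call of a member or another named gene of the lists and gave 1744 genes called higher and 1777 lower. Deviations of same-numbered samples from their group means correlated at -0.20, -0.13 and 0.05, and 1 of 6 samples correlated best with its own number, so the numbers were not taken to pair samples.

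FPKM moved beyond 1 SD for 7 of the 8 members, all but *Sgca*, when the longest transcript replaced the union of exons, with *Dtna* at 6.77 in WT and 15.1 in KO. Depth does not limit the calls of members, whereas *Sgcz*, *Sntg1* and *Dytn* were too low to test. With 3 samples a group, no pair ratio can pass 0.05 in the exact test.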
